A study of Mus musculus with 19 samples.

Results

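The 59 genes described here are protein-coding genes of mouse chromosome 8 that stand together because of 1 embryonic stem cell line, colony line 7, in which transcripts of this chromosome were scarcer than in its sister lines. They were selected on measured values: the contrast between colony line 7 and the other lines was known when the 59 names were listed, so the low level itself is given as a description with no test. All 59 names were found among the 22756 gene entries of the tables and all 59 lie on chromosome 8, which holds 1075 entries. Cnot1 is counted in an entry that joins it with a neighbouring transcript, 4930513N10Rik. Tsnax has a second entry with 0 reads in every library. Counts of members below are out of 59 unless another total is given.

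The cells are Rex1-GFPd2 mouse embryonic stem cells, in which a short-lived green fluorescent protein is made from the Zfp42 (Rex1) locus and marks the naive pluripotent state. Poly(A) RNA of 19 cultures was sequenced from stranded libraries. The undifferentiated culture (1 library) was kept with Lif and the inhibitors of Mek and Gsk3 (2i). Day-2 cells came from differentiation medium with serum (1 library under that title and 1 titled as sorted SSEA1-negative, GFP-negative; the labels give both the same sort). Those double-negative cells were then grown to day 15 without AICAR (1 library) or with AICAR, an activator of the kinase AMPK (1 unfractionated library, 1 GFP-negative and 3 GFP-positive). GFP-positive colonies picked after AICAR were expanded with Lif and 2i as 8 colony lines, numbered 1, 3, 4, 5, 6, 7, 9 and 10, and GFP-positive cells sorted after AICAR were expanded in the same way as 2 sorted lines. Each colony line is the progeny of 1 picked colony, and the labels do not say whether any was karyotyped. DNA copy number was not measured, and in bulk RNA a chromosome missing from every cell cannot be told apart from a larger loss in some of the cells.

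Mouse embryonic stem cells gain and lose whole chromosomes in culture, and trisomy of chromosome 8 is among the changes most often seen because it can favour growth. When every gene of a chromosome changes in copy number, most transcripts follow the dose, while some are held nearer to their former level, which is called buffering. A line that has lost 1 copy out of 3 would hold 2/3 of the dose, a ratio of 0.667 or -0.58 on the log2 scale. The members include Zfp42 itself, so the chromosome whose transcripts were low carries the gene used to report the naive state.

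Depth was similar among the lines: 5937370 to 7370560 reads fell in genes in the 11 libraries of colony lines, sorted lines and undifferentiated cells, and 5771671 to 14233421 over all 19 libraries. Levels are given as CPM, the read count of a gene relative to the reads of its library and multiplied up to a common total, scaled by edgeR's trimmed-mean (TMM) factors over all libraries, which are not corrected for gene length and so compare libraries, not genes. Intervals are 95% intervals for counting error alone. A gene passed the filter on low values with a mean of at least 100 reads over the 11 libraries: 7226 entries did, among them 439 on chromosome 8 and 55 of the members. Egln1, Psmb10, Zfp90 and Rbl2 did not pass and are included in counts of 59 but not in the background, which is taken over the 7226. No pair of libraries of 1 group agreed within sampling noise, and colony lines 1, 4 and 5 were more alike to each other than to lines 3, 6, 9 and 10. Line 7 was nearer to lines 1, 4 and 5 (chi-square per degree of freedom of 7.30 to 8.72) than to the others (10.5 to 14.9). Set against lines 1, 4 and 5 alone, line 7 had a median log2 ratio over the members of -0.52, and against lines 3, 6, 9 and 10 alone one of -0.55.

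The promoters of 2 members are shown as 2 examples, neither of them the lowest or the highest: Zfp42, the reporter locus, with a ratio of colony line 7 to its sister lines near 2/3, and Ctcf, a chromatin regulator with a ratio nearer to 1. Both are the 250 bases before the annotated start in RefSeq (GRCm38.p6), 5′ to 3′ on the gene's strand. The Zfp42 window is chr8:43307010-43307259 on the minus strand, the Ctcf window is chr8:105636288-105636537 on the plus strand, and capitals mark the octamer ATTTGCAT, the motif bound by Oct4 and its relatives.
Zfp42: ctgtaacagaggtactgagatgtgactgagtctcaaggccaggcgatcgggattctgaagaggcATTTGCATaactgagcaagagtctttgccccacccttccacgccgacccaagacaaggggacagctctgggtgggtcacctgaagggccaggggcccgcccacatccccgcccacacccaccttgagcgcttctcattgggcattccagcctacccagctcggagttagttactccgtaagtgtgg
Ctcf: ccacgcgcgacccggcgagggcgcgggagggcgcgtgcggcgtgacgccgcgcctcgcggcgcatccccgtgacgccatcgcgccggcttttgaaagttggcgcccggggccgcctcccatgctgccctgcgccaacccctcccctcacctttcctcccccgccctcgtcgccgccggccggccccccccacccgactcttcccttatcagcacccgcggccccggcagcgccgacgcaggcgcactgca

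The Zfp42 window had a GC content of 58.4% and 9 CpG dinucleotides, with the octamer 186 bases before the start site. The Ctcf window had a GC content of 77.6%, 40 CpG dinucleotides and no such run of letters. RefSeq windows of 300 bases, 250 before and 50 after the start, matched 50 members, with 57 windows. The octamer, searched on both strands with no other motif, lay in 2 of these 57 windows (3.51%), those of Zfp42 and Bcar1, beside 1.74% of 32851 windows of all genes. A match of letters is a description and was not tied to any of the values below.

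Colony line 7 had 0.683 of the mean level of the other 7 colony lines at the median member, a log2 ratio of -0.55, and the middle 50% of members lay between 0.622 and 0.762. All 59 members had a ratio below 1, from 0.404 for Egln1 to 0.981 for Nfat5. For 54 members colony line 7 was below every one of the other 7 colony lines, where 21.9% of all 7226 genes were. For 52 members it was below all 10 other libraries of lines and undifferentiated cells, where 18.0% of all genes were. These members were listed with this contrast in view, so their share says nothing beyond how they were listed. The spread among the other 7 lines was small: the median member had a coefficient of variation of 6.57% there.

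On the log scale, 50 members lay nearer to 2/3 than to 1 or to the next equal step down (2/3 of 2/3). Of all genes past the filter 11.9% did. This band ran from 0.544 to 0.816, and its lower edge does not stand for a copy number. Rfwd3, Slc7a5, Rbl2, Tsnax, Ctcf and Nfat5 lay nearer to 1, and Egln1, Fanca and Jund lay below that band. For several members, among them Jund, Egln1, Rbl2, Ctcf and Gabarapl2, the placing depends on which lines serve as reference. Jund had 78.1 to 84.5 CPM in lines 1, 4 and 5 and 131 to 149 in lines 3, 6, 9 and 10, beside 59.8 in line 7. In the same order Egln1 had 4.88 to 7.72 and 9.28 to 17.7 CPM, beside 3.98. Rbl2 had 14.4 to 19.95 and 8.58 to 9.38 CPM, beside 10.2. Ctcf had 283 to 292 and 221 to 260.3 CPM, beside 233. Gabarapl2 had 175 to 203 and 285 to 296 CPM, beside 184.5. The threshold is not a gap in the data: Terf2ip stood just inside the upper edge at 0.807 and Rfwd3 just outside it at 0.823, while Prdx2 stood just inside the lower edge at 0.554 and Jund just outside it at 0.521. The counting interval of the ratio held 2/3 for 27 members, lay above it for 17 and below it for 15. Single members therefore differed from 2/3 by more than counting error in both directions, although the scatter between lines is not part of that interval.

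The members stood for the chromosome. The other 384 genes of chromosome 8 past the filter, which the list did not use, had a median ratio of 0.679, and 91.1% of them were below all 7 other colony lines. The 6787 genes of other chromosomes had a median ratio of 1.00, and 17.4% of them were below all 7. Near 2/3 were 84.9% of the other chromosome 8 genes and 7.18% of the genes elsewhere. Of the 1304 genes for which colony line 7 was below all 10 other libraries, 366 (28.1%) lay on chromosome 8, which are 83.4% of the chromosome's 439 genes. Without any scaling by gene, 4.13% of the reads of colony line 7 fell on chromosome 8, against 5.83% to 5.94% in the other 7 colony lines. The share was 5.54% and 5.48% in the sorted lines and 5.53% in undifferentiated cells.

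**Figure D1:**
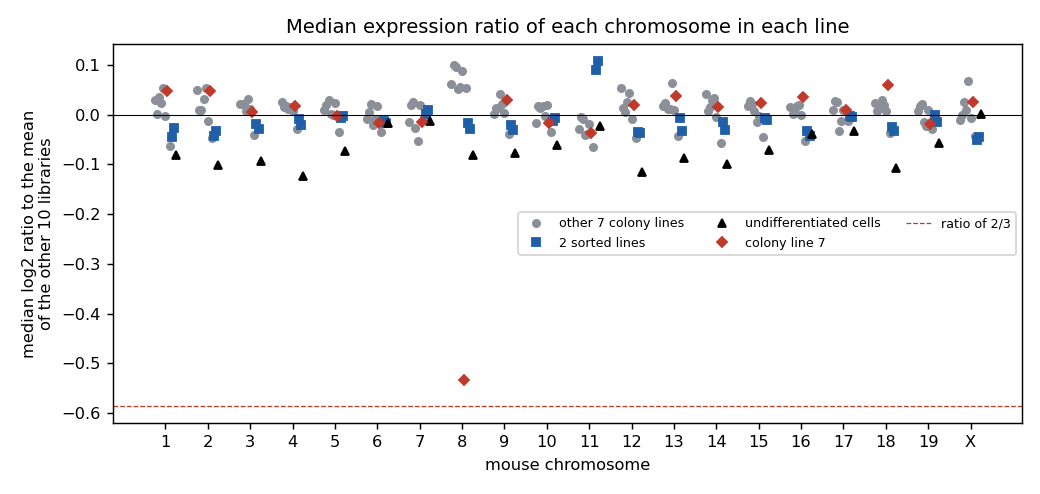
Median log2 ratio of the genes of each chromosome (x axis, chromosomes 1 to 19 and X) in each of 11 libraries to the mean of the other 10. The diamond of colony line 7 on chromosome 8 lies at -0.53, close to the dashed line for a ratio of 2/3, and all other points lie between -0.12 and 0.11.

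Chromosome by chromosome, colony line 7 departed from the rest in chromosome 8 and in the Y chromosome. The median gene of chromosome 8 had 0.691 of its mean over the other 10 libraries, while the medians of the 19 other chromosomes apart from Y ran from 0.975 to 1.04 in this line. In the other 10 libraries the chromosome 8 median ran from 0.946 to 1.07, and no other chromosome apart from Y left the range of 0.918 to 1.08 in any of the 11 libraries. The Y genes were looked at after their values were seen: Ddx3y, Eif2s3y, Uba1y and Uty summed to 0.692 CPM in colony line 7 (4 reads), against 198 to 366 CPM in the other colony lines, 192 and 195 CPM in the sorted lines and 134 CPM in undifferentiated cells. Transcripts of both chromosomes were thus low in the same library, which is the only library of its line.

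**Figure D2:**
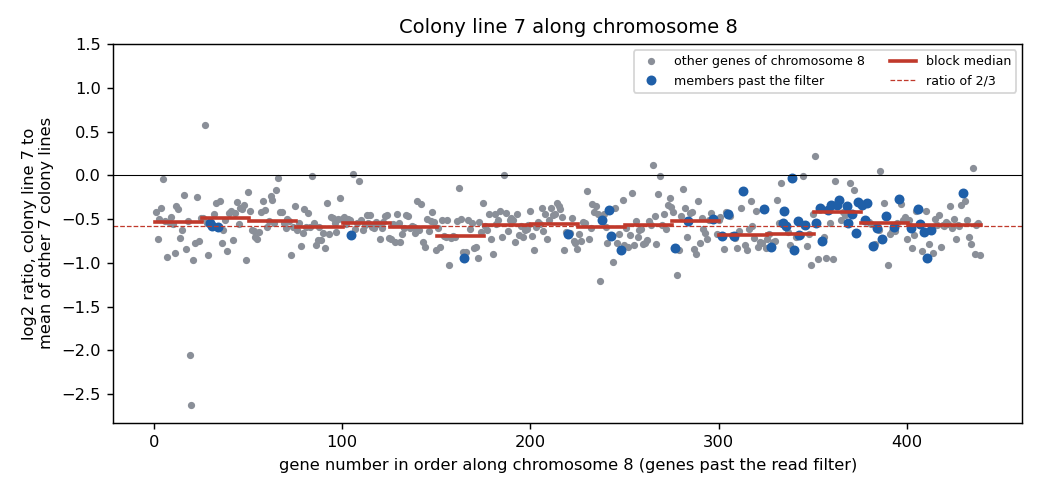
Log2 ratio of colony line 7 to the mean of the other 7 colony lines for the 439 chromosome 8 genes past the filter, in order along the chromosome, with members as larger blue points and the median of each block of genes as a red bar. Every block median lies between -0.69 and -0.42, near the dashed line for a ratio of 2/3 from 1 end of the chromosome to the other.

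The low ratios ran along the whole chromosome. In 17 consecutive blocks of 25 genes (39 in the last), the block median lay between 0.620 and 0.746, and between 80% and 96% of the genes of a block were below all 7 other colony lines. The block with the highest median, 0.746, was the one with the most members, 12 of 25 genes. The 59 members are unevenly placed, between positions 77 and 1056 of the 1075 entries in chromosome order, with most of them in the distal part. Level of expression made little difference to the ratio: the 146 lowest, the 146 middle and the 147 highest of the 439 genes by mean CPM had medians of 0.684, 0.683 and 0.673. The 2 lowest points of the plot along the chromosome are Col4a1 and Col4a2, basement membrane collagens, whose ratios of 0.241 and 0.161 come from colony line 5, where they reached 697 and 351 CPM, against medians of 24.6 and 10.3 CPM over the 7 lines. Colony line 7 itself had 36.7 and 12.45 CPM, above those medians.

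Set against lines other than colonies, the members of colony line 7 were also low, by somewhat less. Their median was 0.717 of the mean of the 2 sorted lines, with 57 members below 1 and 38 near 2/3, where 50.2% and 15.6% of all 7226 genes were. Against the single undifferentiated library it was 0.762, with 54 members below 1 and 36 near 2/3, where 44.8% and 18.0% of all genes were. Genes of other chromosomes had a median of 1.01 against the sorted lines and 1.05 against undifferentiated cells. Part of the smaller gap was thus not particular to chromosome 8. Colony line 7 is in all 3 contrasts, so they are not independent of each other. In the same terms the sorted lines held 0.957 and 0.933 of the mean of the 7 other colony lines at the median member, and undifferentiated cells 0.912. At the median gene of other chromosomes the sorted lines held 0.992 and 0.989, and undifferentiated cells 0.9565. The other 7 colony lines held 0.961 to 1.02 of the mean of the remaining 6 when line 7 was left aside, so no other line came near 2/3 over the members.

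**Figure D3:**
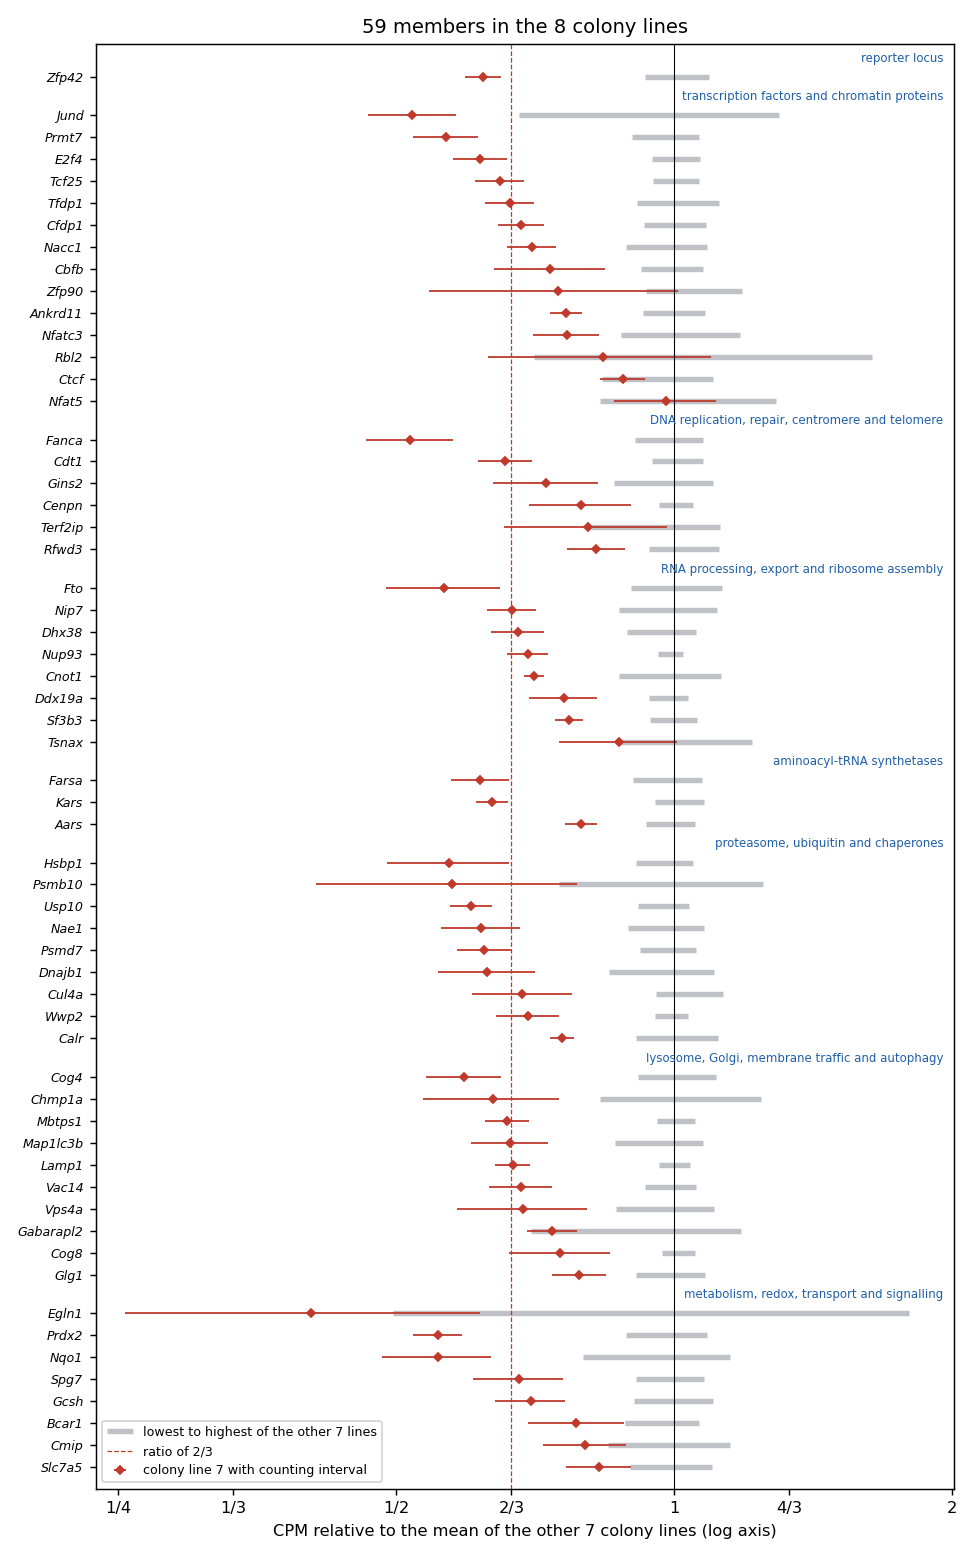
CPM of colony line 7 (diamonds with 95% counting intervals) relative to the mean of the other 7 colony lines for the 59 members, grouped by role on a log axis, with the range of the other 7 lines as grey bars. In 54 members the diamond lies left of the whole bar, and it falls inside the bar for Gabarapl2, Rbl2, Tsnax, Ctcf and Nfat5.

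Zfp42, a zinc finger protein used as a marker of naive pluripotency, had 367 CPM in colony line 7 (2124 reads). In the other 7 colony lines it had 550.2 CPM at the lowest, 578.5 at the median and 645 at the highest, in the sorted lines 508 and 504.5, and in undifferentiated cells 449. Colony line 7 was thus the lowest of the 11 libraries and did not overlap with any. The ratio to the other colony lines was 0.621 (counting interval 0.594 to 0.649), to the sorted lines 0.726 and to undifferentiated cells 0.818. The GFP reporter is not an entry of the tables, so its own transcript was not analysed here.

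Zfp42 was still far above its level in cells that had left the naive state. Day-2 cells had 27.9 and 21.0 CPM, and day-15 cells without AICAR 4.92. With AICAR it was 215 CPM in the unfractionated culture, 55.6 in GFP-negative cells, and 644, 575.5 and 421.5 in GFP-positive cells. The 367 CPM of colony line 7 was below all 3 GFP-positive libraries and above every GFP-negative or unfractionated one.

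**Figure D4:**
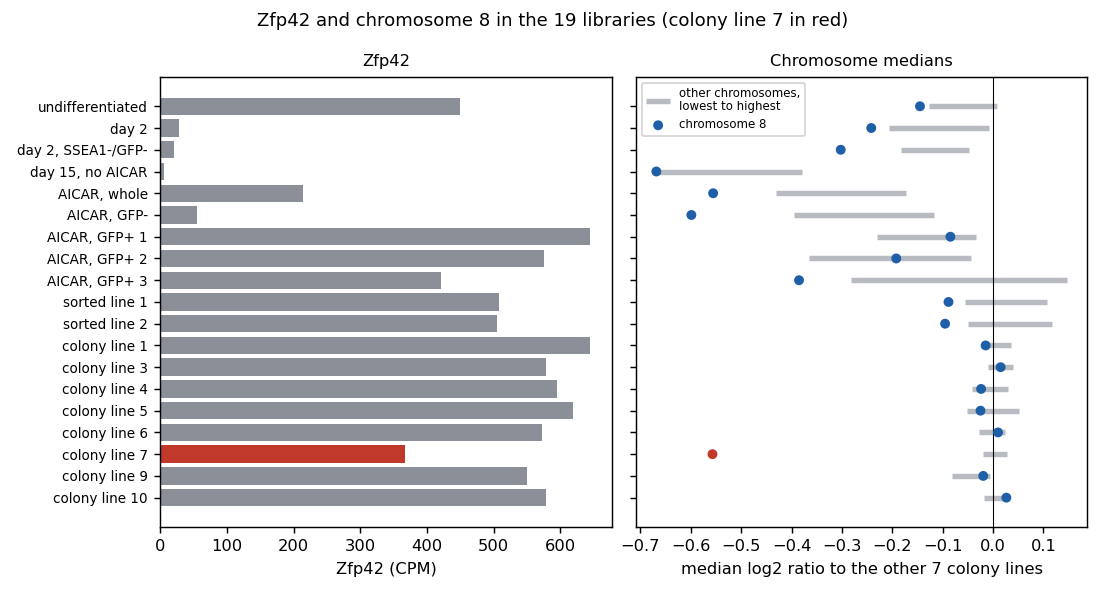
Zfp42 in CPM (left) and the median log2 ratio of chromosome 8 genes to the other 7 colony lines (right, points) with the lowest and highest of the other chromosomes (bars) in each of 19 libraries. Among the lines, only colony line 7 has its chromosome 8 point (-0.56) far outside the bar of the other chromosomes (-0.02 to 0.03).

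The chromosome 8 median was also low outside the lines, where other chromosomes were low too. Relative to the 7 other colony lines it was -0.24 (log2) in day-2 cells, where other chromosomes ran from -0.21 to -0.01, and -0.30 in the SSEA1-negative, GFP-negative day-2 cells (others -0.18 to -0.05). In both it was the lowest of 20 chromosomes. It was -0.6684 (log2) in day-15 cells without AICAR, just under the range of the other chromosomes (-0.6655 to -0.38). In AICAR GFP-negative cells it was -0.60, below the range of the other chromosomes (-0.40 to -0.12), and in unfractionated AICAR cells -0.56 (others -0.43 to -0.17). The 3 AICAR GFP-positive libraries did not agree: replicates 1 and 2 had -0.08 and -0.19, inside the range of their other chromosomes, and replicate 3 had -0.39, below its range of -0.28 to 0.15. Replicates 1 and 2 come from a second sequencing project, per the file headers. Y transcripts were present in all of these, at 72.4 to 183 CPM, so in these libraries a low chromosome 8 median did not come with missing Y transcripts. By the same measure chromosome 8 was the lowest of 20 chromosomes in both sorted lines and in undifferentiated cells. The sorted lines had -0.09 (others -0.06 to 0.11) and -0.10 (others -0.05 to 0.12). Undifferentiated cells had -0.15 (others -0.13 to 0.01).

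Among the 14 transcription factors and chromatin proteins the median ratio was 0.718. They include the growth and cell cycle regulators E2f4, Tfdp1 and Rbl2, the core binding factor subunit Cbfb, the calcium- and tonicity-responsive factors Nfatc3 and Nfat5, the arginine methyltransferase Prmt7, the corepressor Nacc1, the chromatin factor Cfdp1, and Zfp90 and Tcf25. Ankrd11, a chromatin regulator, had 439.5 CPM in colony line 7 against 533, 561 and 622 CPM (lowest, median, highest) in the other 7, 449.8 and 527.5 in the sorted lines and 499 in undifferentiated cells. Its ratio of 0.764 (interval 0.733 to 0.796) put it near 2/3, on the high side.

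Jund, an AP-1 subunit, had 59.8 CPM in colony line 7 and 78.1, 131 and 149 CPM in the others, with 144 and 140.2 in the sorted lines and 188 in undifferentiated cells. This is 0.521 of the colony mean (interval 0.466 to 0.581), but the other lines themselves spread widely, with a mean of 115 ± 32.8 CPM (SD, n = 7). Prmt7 had 108 CPM against 172, 197 and 203 in the other colony lines, 202 and 191 in the sorted lines and 195 in undifferentiated cells, a ratio of 0.566 with no overlap. Nacc1, which works in embryonic stem cells as a partner of Nanog, had 198 CPM against 251, 278.5 and 307, with 259.7 and 242 in the sorted lines and 204 in undifferentiated cells, a ratio of 0.702.

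Ctcf and Nfat5 were closest to 1 among these factors. Ctcf, which organises chromatin loops, had 233 CPM in colony line 7, inside the 221, 260.3 and 292 CPM of the other 7 and beside 241 and 234 in the sorted lines and 214 in undifferentiated cells. Its counting interval (0.831 to 0.931) lay above 2/3 and below 1, although the line was not the lowest of the 8. Lines 1, 4 and 5 were all above colony line 7, at 283 to 292 CPM. Nfat5 had 48.2 CPM against 40.9, 49.3 and 63.4, with 37.2 and 41.0 in the sorted lines and 28.5 in undifferentiated cells. Its ratio of 0.981 (interval 0.862 to 1.11) was the highest of all 59, and colony line 7 was above both sorted lines and undifferentiated cells. Rbl2, with 0.839, rests on 10.2 CPM and its interval (0.629 to 1.10) held both 2/3 and 1.

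The 6 genes of DNA replication, repair, centromere and telomere had a median ratio of 0.759. Cdt1, which licenses replication origins, had 162 CPM in colony line 7 and 234, 242 and 266 in the other 7, with 261 and 242 in the sorted lines and 246 in undifferentiated cells, a ratio of 0.656 (interval 0.613 to 0.701). Fanca, of the Fanconi anaemia repair complex, had 61.9 CPM against 108, 116 and 129, with 102 and 108 in the sorted lines and 118 in undifferentiated cells. Its ratio was 0.518 (interval 0.464 to 0.577), below 2/3 by more than counting error. The GINS subunit Gins2, the centromere protein Cenpn, the telomere protein Terf2ip and the ubiquitin ligase Rfwd3 had ratios of 0.726 to 0.823.

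For the 8 genes of RNA processing, export and ribosome assembly the median was 0.700. Cnot1, the scaffold of the CCR4-NOT deadenylase, measured in its joined entry, had 1136 CPM in colony line 7 against 1402, 1554 and 1811 in the other 7, 1300 and 1279 in the sorted lines and 1214 in undifferentiated cells. The ratio to the colony lines was 0.706 (interval 0.688 to 0.724), and it was much nearer to 1 against undifferentiated cells, at 0.936. Tsnax, the translin partner of small RNA metabolism, had 35.5 CPM against 35.3, 39.9 and 49.3, with 44.8 and 41.2 in the sorted lines and 38.6 in undifferentiated cells. It overlapped with the lowest of the other lines, and its interval (0.751 to 1.01) held 1. The ribosome assembly factor Nip7, the nucleoporin Nup93, the helicases Dhx38 and Ddx19a, the splicing factor Sf3b3 and the RNA demethylase Fto lay between 0.563 and 0.770.

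All 3 aminoacyl-tRNA synthetases on the list, the enzymes that charge tRNAs, were below every other line. Kars (lysine) had 467 CPM in colony line 7 against 702, 724 and 793 CPM, with 699 and 696 in the sorted lines and 648 in undifferentiated cells, a ratio of 0.635. Aars (alanine) had 479 CPM against 564, 611 and 637, with 578 and 587 in the sorted lines and 584 in undifferentiated cells. Its ratio of 0.793 (interval 0.763 to 0.825) did not overlap with the interval of Kars (0.611 to 0.661), although both genes lie on the same chromosome. Farsa, a subunit of the phenylalanine enzyme, had a ratio of 0.617.

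The 9 genes of the proteasome, ubiquitin system and chaperones had a median of 0.623, among the lowest of the roles. Calr, the endoplasmic reticulum chaperone calreticulin, had 787 CPM against 945, 1038 and 1161 in the other 7, with 1061 and 1036 in the sorted lines and 977 in undifferentiated cells, a ratio of 0.757 and the highest of its role. Between 0.571 and 0.695 lay the proteasome subunits Psmd7 and Psmb10, the deubiquitinase Usp10, the cullin Cul4a and the ubiquitin ligase Wwp2. The NEDD8-activating subunit Nae1, the chaperone gene Dnajb1 and Hsbp1, whose product binds a heat shock factor, lay there too.

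Lysosome, Golgi, membrane traffic and autophagy genes (10) had a median of 0.676. Lamp1, a major lysosomal membrane protein, had 382 CPM in colony line 7 and 549, 565 and 594 in the other 7, with 558 and 533 in the sorted lines and 544.5 in undifferentiated cells. Its ratio of 0.669 (interval 0.640 to 0.699) held 2/3. The Golgi tethers Cog4 and Cog8, the Golgi protein Glg1, the ESCRT genes Chmp1a and Vps4a, the protease Mbtps1, the lipid kinase scaffold Vac14 and the autophagy gene Map1lc3b lay between 0.592 and 0.789. Gabarapl2, also of autophagy, had a ratio of 0.738 but overlapped with the other lines, which spread from 175 to 296 CPM around its 184. It had 175 to 203 CPM in lines 1, 4 and 5 and 285 to 296 in lines 3, 6, 9 and 10.

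The 8 genes of metabolism, redox, transport and signalling had a median of 0.689 and held the lowest ratio of all members. Prdx2, a peroxiredoxin that removes hydrogen peroxide, had 190 CPM in colony line 7 against 304, 358 and 372, with 360.4 and 342 in the sorted lines and 365 in undifferentiated cells, a ratio of 0.554 (interval 0.521 to 0.590). Nqo1, a quinone reductase, was similarly low at 0.555. Egln1, the oxygen sensor that marks Hif1a for destruction, gave the lowest ratio but rests on 23 reads: 3.98 CPM against 4.88, 9.28 and 17.7, with 12.8 and 10.97 in the sorted lines and 15.9 in undifferentiated cells. Its interval ran from 0.254 to 0.616, and the other lines differed among themselves by more than this.

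Slc7a5, the amino acid transporter LAT1, had 114 CPM against 123, 134.5 and 151, with 144 and 138 in the sorted lines and 149 in undifferentiated cells. Its ratio of 0.830 was nearer to 1 than to 2/3, though below every other line. Spg7, a mitochondrial protease subunit, had 59.1 CPM against 79.2, 85.5 and 94.0, with 84.3 and 83.7 in the sorted lines and 100.5 in undifferentiated cells, a ratio of 0.679. Bcar1, an adhesion signalling scaffold, had 52.2 CPM against 58.97, 66.6 and 71.0, with 70.8 and 55.3 in the sorted lines and 57.8 in undifferentiated cells, a ratio of 0.783. The glycine cleavage protein Gcsh and the adaptor Cmip had 0.699 and 0.800.

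Genes that work in the same complexes as members but lie on other chromosomes stayed near the level of the other lines. Of 129 such partners listed, 119 passed the filter. The 112 on other chromosomes had a median ratio of 0.986, 17.0% of them were below all 7 other colony lines and 2.68% were near 2/3. The 7 on chromosome 8 had a median of 0.661 and all 7 were below all other lines. Within CCR4-NOT, Cnot7 on chromosome 8 had a ratio of 0.684, beside 0.706 for the scaffold Cnot1. The 7 CCR4-NOT genes elsewhere had a median of 1.00, from 0.905 for Rqcd1 to 1.20 for Cnot11, and 2 of them, Rqcd1 and Cnot8, were below all 7 other lines. Of the m-AAA protease, Afg3l1 on chromosome 8 had 0.673 and Afg3l2 elsewhere 1.02, beside 0.679 for Spg7.

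The translin gene Tsn, partner of Tsnax, had 0.987. Slc3a2, the heavy chain that pairs with Slc7a5, had 0.841 and was below all 7 other lines, so both chains of this transporter were low by a similar amount. The 19 other aminoacyl-tRNA synthetases and scaffolds had a median of 1.05, with Cars highest at 1.53. Proteasome subunits off chromosome 8 (30 genes) had a median of 0.922, and 7 of them were below all other lines. Rbl1, a pocket protein on chromosome 2 named after its value was seen, was at 0.662, and the other 6 partners of its list lay between 0.932 and 1.06.

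Marker lists of the naive state and of other cell types were compared in the same library, and their part in the result was not tested. The 16 naive markers summed to 4574 CPM in colony line 7, just under the 4601 to 4864 CPM of the other colony lines, and 2 of the 16, Zfp42 and Klf2, lie on chromosome 8. Klf2 and the other markers named next were picked out after their values were seen. Klf2, a naive-state factor, had 164.5 CPM against 254, 279 and 309 in the other 7, a ratio of 0.589. Off chromosome 8, Klf4, Tbx3, Tfcp2l1, Prdm14, Nr0b1 and Stat3 were above all 7 other colony lines, with ratios of 1.10 to 1.41. Dppa3, Tcl1 and Tdh, also off chromosome 8, were below all 7, with ratios of 0.511, 0.593 and 0.909, of which Dppa3 had under 2 CPM in every colony line. Of the 16 naive markers 6 were thus above and 5 below all 7 other colony lines, where 18.0% and 21.9% of all 7226 genes were.

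General pluripotency genes (9) summed to 3989 CPM against 3610 to 4006, and epiblast genes (9) to 386 against 325 to 405. Endoderm markers (12) summed to 58.1 CPM against 31.2 to 1074, the highest being colony line 5, and 21410 in day-15 cells without AICAR, with 2 of the 12 at 0 in colony line 7. Col4a1 and Col4a2, both on chromosome 8, made up most of these sums in colony lines 7 and 5. They had 36.7 and 12.45 CPM in line 7 and 697 and 351 in line 5. In line 7, 7 of the 12 endoderm markers were under 1 CPM. Mesenchyme and smooth muscle markers (12) summed to 2798 against 2564 to 3156 and 43580 at day 15, trophoblast markers (8) to 81.5 against 62.0 to 129 and 780 at day 15, and 2-cell-like markers (8) to 130 against 60.8 to 440. Of the mesenchyme sum in colony line 7, Fn1 and Vim held nearly all, at 2194 and 592 CPM, and 6 of the 12 were under 1 CPM. The mesenchyme, trophoblast and 2-cell-like lists each had 2 markers at 0 in colony line 7. None of the 4 lists of other cell types was outside the range of the other colony lines in its sum. Targets of p53 differed: 10 genes summed to 909.7 CPM against 657 to 824, and 8 of the 10 were above all 7 other colony lines, where 18.0% of all genes were. Cdkn1a, the p53 target that arrests the cell cycle, was instead below all 7, at 30.4 CPM against 36.4 to 47.0.

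Comparisons between culture states are not the contrast on which the members were listed, although their results were known too, and were tested across all genes. The first set the 8 colony lines, in Lif and 2i, against the 3 libraries of AICAR GFP-positive cells, the state from which the colonies were picked. In edgeR's quasi-likelihood test with Benjamini-Hochberg adjustment at 0.05, 21 members were higher in the colony lines (27.6% of 12225 genes were) and 11 were lower (30.3% were). The median member had a log2 fold change of 0.08, against -0.03 for all genes. All 3 aminoacyl-tRNA synthetases were higher, as were 3 of 6 replication and repair genes, 5 of 9 of the proteasome and ubiquitin group (1 lower) and 4 of 8 RNA processing genes (1 lower). Of 14 transcription factors and chromatin proteins 3 were higher and 3 lower, of 10 membrane traffic genes 1 higher and 3 lower, and of 8 genes of metabolism and signalling 2 higher and 3 lower. Zfp42 did not pass, at 0.01 ± 0.15 (SE, adjusted p = 0.974, edgeR's quasi-likelihood test).

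Bcar1 had the smallest adjusted p. It had 154, 122 and 116 CPM in the 3 AICAR GFP-positive libraries and 52.2, 66.1 and 71.0 (lowest, median, highest) in the 8 colony lines, with no overlap. The log2 fold change was -1.04 ± 0.10 (SE, adjusted p = 1.2e-06, edgeR's quasi-likelihood test). Tsnax had 79.2, 64.3 and 59.6 CPM against 35.3, 38.5 and 49.3 (log2 -0.79 ± 0.11, adjusted p = 3.7e-05). Spg7 had 192, 157 and 119 against 59.1, 85.0 and 94.0 (log2 -0.93 ± 0.13, adjusted p = 4.9e-05). These 3 were higher in every AICAR library than in every colony line.

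Aars went the other way, with 409, 401 and 356 CPM in the AICAR libraries and 479, 607 and 637 in the colony lines (log2 0.56 ± 0.08, adjusted p = 7.3e-05). Fanca had 59.1, 48.5 and 45.4 against 61.9, 116 and 129 (log2 1.10 ± 0.18, adjusted p = 0.000135). Colony line 7 was the lowest colony line for both and still above all 3 AICAR libraries. With colony line 7 left out, 27 members were higher. Without AICAR GFP-positive replicate 3, 13 were. Within the first sequencing project, which leaves replicate 3 as the only AICAR library and assumes that it varies like the lines, 22 were higher and 6 lower, and Nfat5 went from -0.52 to 0.04.

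**Figure D5:**
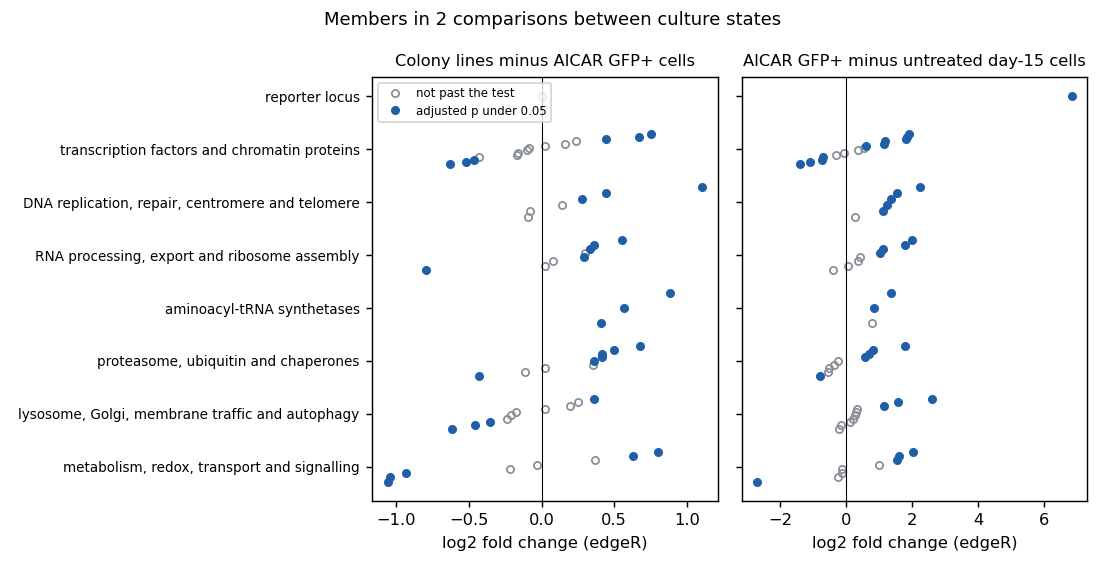
Log2 fold change of each member, by role, between the colony lines and AICAR GFP-positive cells (left) and between AICAR GFP-positive and untreated day-15 cells (right), from edgeR, with filled points past an adjusted p of 0.05. On the left 21 members are higher and 11 lower, on the right 28 higher and 6 lower, with Zfp42 at 6.83.

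AICAR GFP-positive cells were then set against the single day-15 culture without AICAR, which is assumed to vary like the AICAR group. The spread in this test comes from the 3 AICAR libraries alone, and replicate 3 stood apart from replicates 1 and 2 (chi-square per degree of freedom of 51.05 and 47.7, against 10.5 between replicates 1 and 2). The p-values thus set the AICAR libraries against that 1 culture. This comparison shares the AICAR libraries with the comparison above. Zfp42 stays in its member count, although GFP made from the Zfp42 locus defined the sorted cells. In edgeR's quasi-likelihood test with Benjamini-Hochberg adjustment, 28 members, Zfp42 among them, were higher in AICAR GFP-positive cells (23.1% of 14857 genes were) and 6 lower (23.2% were), with a median log2 fold change of 0.56 against -0.03 for all genes. Replication and repair genes were higher in 5 of 6 cases, transcription factors and chromatin proteins in 6 of 14 with 4 lower, and RNA processing genes in 4 of 8. Of the others, 2 of 3 aminoacyl-tRNA synthetases, 4 of 9 of the proteasome and ubiquitin group (1 lower), 3 of 10 membrane traffic genes and 3 of 8 genes of metabolism and signalling (1 lower) were higher. Without AICAR replicate 1 the count of higher members was 18, and without replicate 2 it was 13 with 1 lower. Replicates 1 and 2 come from the second sequencing project and the day-15 library from the first, so project and treatment cannot be told apart for them. All 3 AICAR libraries were sorted for GFP at day 15, and the title of the untreated culture names no such sort. Sort and treatment thus cannot be told apart either. The other chromosome 8 genes tested had a median log2 fold change of 0.074, so the 0.56 of the members was not that of the chromosome.

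Zfp42 had 4.92 CPM in the untreated culture and 644, 575.5 and 421.5 with AICAR, a log2 fold change of 6.83. The GFP that defines GFP-positive cells is made from the Zfp42 locus, so the sort itself selects for Zfp42 and the difference is given with no p-value. Both the untreated and the AICAR cultures grew from GFP-negative cells. The unfractionated AICAR culture, not sorted for GFP at day 15, had 215 CPM. How much of the difference the sort made was not tested. Cdt1 rose from 36.6 CPM to 192, 168 and 151 (log2 2.25 ± 0.22, adjusted p = 0.00376, edgeR's quasi-likelihood test). Prmt7 rose from 45.8 CPM to 172, 145 and 155 (log2 1.82 ± 0.18, adjusted p = 0.00385). The corepressor gene Nacc1 and the transporter gene Slc7a5 were likewise higher in all 3 AICAR libraries. Nacc1 went from 77.6 CPM to 325, 274 and 256 (log2 1.91 ± 0.22, adjusted p = 0.00465). Slc7a5 went from 45.1 CPM to 125, 145 and 130 (log2 1.60 ± 0.19, adjusted p = 0.00526). In these 5 genes each AICAR GFP-positive library had more than 2 times the level of the untreated one. The unfractionated AICAR culture had 95.01 CPM of Cdt1, 84.1 of Prmt7, 172 of Nacc1 and 65.8 of Slc7a5.

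The members also had distinct courses across the remaining libraries, each a single culture. Cdt1, Kars, Aars and Fanca had lower levels in day-15 cells without AICAR than in any line or day-2 library. Kars had 761 and 679.5 CPM in the day-2 libraries, 206 at day 15, 331.5 in unfractionated and 317.5 in GFP-negative AICAR cells, and 558, 561 and 427 in the GFP-positive ones. Aars had 532 and 467 CPM at day 2, 221 at day 15, and 314 and 307 in unfractionated and GFP-negative AICAR cells. Cdt1 had 202 and 185 CPM at day 2 and 95.01 and 112 in those AICAR cells, and Fanca had 66.3 and 62.8 CPM at day 2, 23.9 at day 15, and 28.1 and 25.6 with AICAR.

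Prmt7, Nacc1, Slc7a5, Cnot1 and Ctcf had their lowest level in day-15 cells without AICAR. Prmt7 had 219.9 and 193 CPM at day 2 and 84.1 and 121 in unfractionated and GFP-negative AICAR cells. Nacc1 had 235 and 240.5 CPM at day 2 and 172 and 163 in those AICAR cells. Slc7a5 had 135 and 140.1 CPM at day 2 and 65.8 and 94.0 in those AICAR cells. For all 3 the GFP-positive AICAR libraries given above were higher than the unfractionated and GFP-negative ones.

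Cnot1 had 829 and 1100 CPM at day 2, 564 at day 15, 774 and 863 in unfractionated and GFP-negative AICAR cells, and 1299 to 1077 over the GFP-positive ones. Ctcf had 237 and 248 CPM at day 2, 113 at day 15, 161 and 158 in those AICAR cells, and 283, 258 and 211 in the GFP-positive ones. Ankrd11 had 563 and 681 CPM at day 2, 387.5 at day 15, 489.6 and 569.9 in those AICAR cells, and 955, 869 and 701 in the GFP-positive ones, which were its highest levels. In Ankrd11 every AICAR GFP-positive library was thus above all 8 colony lines.

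Other members were highest away from the naive state. Egln1 had 29.6 and 22.3 CPM at day 2, 122 at day 15, 22.2 and 45.1 in unfractionated and GFP-negative AICAR cells, and 18.8, 11.02 and 26.2 in the GFP-positive ones. Bcar1 had 188 and 146 CPM at day 2, 159.9 at day 15 and 203 and 150.4 in those AICAR cells. Lamp1 had 499 and 487 CPM at day 2, 583.5 at day 15, 885.5 and 927.5 in those AICAR cells, and 672, 606 and 773 in the GFP-positive ones. Lamp1 and Bcar1 were thus higher in every day-15 AICAR library than in every line.

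Spg7 had 71.4 and 73.1 CPM at day 2, 81.0 at day 15 and 125 and 105 in unfractionated and GFP-negative AICAR cells. Tsnax had 50.1 CPM in both day-2 libraries, 66.5 at day 15 and 62.3 and 63.3 in those AICAR cells. Nfat5 had 23.0 and 45.8 CPM at day 2, 87.0 at day 15, 52.1 and 41.3 in those AICAR cells, and 86.9, 71.0 and 47.1 in the GFP-positive ones. Tsnax was the steadier of these, with all its day-2 and day-15 libraries between 50.1 and 79.2 CPM.

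Calr had 828 and 851 CPM at day 2, 1086 at day 15, 846 and 988 in unfractionated and GFP-negative AICAR cells, and 528, 581 and 735 in the GFP-positive ones, below all 8 colony lines. Prdx2 had 363.5 and 321 CPM at day 2, 273 at day 15, 177 and 175 in those AICAR cells, and 292, 237 and 204 in the GFP-positive ones. Jund had 214 and 168 CPM at day 2, 191 at day 15, 119.7 and 133 in those AICAR cells, and 130.5, 101 and 104 in the GFP-positive ones. The 190 CPM of Prdx2 in colony line 7 was close to that of the unfractionated and GFP-negative AICAR cells, and the 59.8 CPM of Jund was below all 18 other libraries.

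Between colony lines and sorted lines, which share a medium, no member passed the test. In edgeR's quasi-likelihood test with Benjamini-Hochberg adjustment 0 of 11870 genes passed (0.0%), with a smallest adjusted p of 0.484. At an unadjusted p under 0.05 there were 1092 genes, among them 2 members, and the DESeq2 Wald test called 0 members. A group of 2 libraries and the spread that colony line 7 adds to the colony group limit this comparison, and 0 members passed without colony line 7 too. The labels do not say whether libraries of a group came from separately started cultures, so the p-values measure the spread between these libraries.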

How the data were processed

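RNA of 19 cultures was measured by RNA-seq. Per the submitters' processing notes the authors used bcl2fastq with CASAVA 1.8.2, Trimmomatic 0.3.3, TopHat2 2.0.14, Bowtie2 2.2.5 and the mm9 build. Per the file headers, the deposited reads are counts of uniquely mapped reads per RefSeq gene without 3′ UTRs, made by rpkmforgenes, and the deposited RPKM values come from the same reads. The counts were used, and RPKM served as an alternative. How the counting treated strand is not given in the sources used here, so genes that overlap on opposite strands may share reads.

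Chromosomes and gene order were taken from a RefSeq table of GRCm38.p6 (22714 of 22756 entries matched), without its coordinates. CPM was scaled by TMM (edgeR 4.0.16, R 4.3.3), and log2 ratios had 0.5 reads added. Groups follow the labels. Between culture states edgeR's quasi-likelihood test was fitted to all genes past its expression filter (at least 10 reads, 15 in total), with Benjamini-Hochberg adjustment over all of them, and tested on simulated data. DESeq2 1.42.0 was an alternative, as were other scalings, filters and left-out libraries.

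Members, roles, partner and marker lists were chosen with earlier results of these data known. Values in every library are given for Zfp42, the member of each role with the highest mean CPM, the 3 lowest and 3 highest ratios, and up to 5 members with the smallest adjusted p per test.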

Additional observations from a re-analysis of the deposited data

Results flagged for a closer look

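Among the 8 colony lines, a value was set apart when the gap between the lowest or highest line and its nearest neighbour took an unusually large share of the whole range, at a limit that chance passes in about 1 in 20 groups. Colony line 7 was the lowest line past this limit for 31 of 59 members, a pattern that the choice of the members had in view, and for 230 of all 7226 genes past the filter (3.18%), 175 of them among the 439 on chromosome 8.

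Among the genes named in the text, the lone low values of colony line 7 were Zfp42 at 367 CPM, Cdt1 at 162, Kars at 467, Lamp1 at 382, Prdx2 at 190, Fanca at 61.9, Spg7 at 59.1, Aars at 479 and Prmt7 at 108. Nfat5 was the single member set apart by a high value, 63.4 CPM in colony line 1. That line also sets the upper end of the range against which the ratio of Nfat5 in colony line 7, the highest of all members, was given.

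The median ratio of the members to the other lines was 0.683 in colony line 7, and the chromosome 8 median 0.691. The gap to the next line took 0.843 and 0.908 of the range. The summed Y chromosome transcripts of 0.692 CPM in colony line 7 were set apart in the same way. In colony line 9 the medians of chromosome 14 (0.962), chromosome 16 (0.964), chromosome 3 (0.973) and chromosome 4 (0.980) were lower than in the other colony lines by gaps past the limit, although each lay within 4% of 1. They were not alone: every chromosome but 8 and Y had a median below 1 in this line. Chromosomes 11 (0.956) and 1 (0.957) were lower than those named.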

How the results depend on the processing

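The low level of the members in colony line 7 kept its direction under each scaling, filter and left-out library tried. The median log2 ratio to the other colony lines, -0.55, was -0.50 with library size alone and -0.51 with the deposited RPKM. Against the sorted lines, -0.48 became -0.44 with library size alone and -0.44 with RPKM. The chromosome 8 median, -0.53, was -0.49 with library size alone. TMM over the 11 libraries alone and reference lines split as above were chosen after seeing the data. Leaving out 1 other colony line at a time gave medians of -0.56 to -0.54 and 54 to 55 members below all others. Leaving out a sorted line gave -0.51 to -0.46.

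Counts of members called between culture states moved more. Colony lines against AICAR GFP-positive cells gave 13 to 27 higher and 8 to 12 lower when 1 library was left out, with 13 without AICAR GFP-positive replicate 3 and 27 without colony line 7. Within the first sequencing project 6 were lower, and Nfat5 turned from -0.52 to 0.039. AICAR GFP-positive against day-15 cells gave 13 to 35 higher and 1 to 6 lower: 18 higher without AICAR replicate 1, 13 higher and 1 lower without replicate 2. The cause was not tested. Against sorted lines the counts stayed between 0 and 0. No paired analysis was possible because replicate numbers of colony lines, sorted lines and AICAR libraries name separate cultures that the labels do not tie to each other. The depth of genes such as Egln1 and Psmb10 leaves their ratios uncertain.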
